A study of Solanum lycopersicum with 84 samples.

Results

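The 200 genes described here were read mainly in the endosperm of the developing tomato seed, and had their highest endosperm mean at 35 days after flowering (DAF). They were chosen by their own expression values. Levels were in CPM, the counts of a gene per 1000000 counts of its library, and were averaged over the libraries of a tissue and stage. A gene qualified if its highest endosperm mean was at least 10 times its highest embryo mean and at least 10 times its highest seed coat mean, if 35 DAF was its highest endosperm stage, and if that mean was above 1 CPM. Of 33976 genes in the table, 366 met these conditions, and the 200 with the highest mean at 35 DAF were kept. The levels in the 3 dissected tissues are therefore given as a description and were not tested. Whole seeds were not used in the choice, so that the steps between whole seed stages were tested.

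All plants were of the tomato cultivar Moneymaker and grown in a greenhouse, with no treatment and no mutant. Whole seeds were taken at 15, 21 and 28 DAF. From 35 DAF the seeds were dissected by hand into embryo, endosperm and seed coat, the seed coat at 35, 42 and 49 DAF only, and the embryo and endosperm also at the fruit stages MG (mature green, 56 DAF), B (at 63 DAF), PO (at 67 DAF), O (at 70 DAF), DO (at 72 DAF), R (at 76 DAF), R7 (at 83 DAF) and R14 (at 90 DAF). Each of the 28 groups had 3 libraries from pooled seeds, described as biological replicates, which makes 84 libraries with 16908779 to 22734330 counts.

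In the seed of tomato and its relatives the endosperm is a living, cellular tissue that surrounds the embryo. It arises from the second fertilization event, takes up sugars and amino acids from the mother plant, stores reserves in its cells and in the mature seed restrains the outgrowth of the radicle. In Arabidopsis, master regulators of the LAFL network (LEC1, ABI3, FUS3 and LEC2) drive reserve storage and the late seed program, and LEC1-type proteins are subunits of the NF-Y transcription factor. These roles are background and were not measured here.

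Most of the 200 genes have no name in the sources used here. The supplementary tables of the study give a description for 14 of them, 5 of which read only "unknown protein", and list 56 under Gene Ontology (GO) terms of coexpression modules, 53 in the module ME6 and 3 in ME16. For 132 genes there was neither. The modules were built by the study on these same libraries, so that membership in them is not independent evidence of a course in time, and only the names of the terms are used below.

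The dissected tissues were checked with markers of embryo and seed coat, and no separate endosperm marker was used. The embryo gene SlABI4-2 had 39.5, 52.9 and 62.6 CPM in the embryo libraries of 35 DAF and 0.232, 1.84 and 4.56 in the endosperm libraries. NOTABILIS, an abscisic acid synthesis gene read mainly in the seed coat, had 1449, 1480 and 1848 CPM in seed coats and 15.6, 13.5 and 19.4 in the endosperm at 35 DAF. In the 42 DAF endosperm SlABI4-2 had 1.22, 0.686 and 5.12 CPM, which is 4.21%, 2.37% and 17.7% of the embryo mean of that age. Replicate 3 was thus the highest. NOTABILIS had 1.63, 2.38 and 3.66 CPM there, at most 0.502% of the seed coat mean. The second seed coat marker, SlAGL11, was at 0 in every library and checked nothing. Some libraries stood apart for the 200 genes. At 42 DAF, their summed level was 8509 CPM in endosperm replicate 1, against 35479 CPM in replicate 2 and 38914 CPM in replicate 3, and 160 of the 200 genes had their lowest library in replicate 1. At 35 DAF, 182 of the 200 genes had their highest seed coat library in replicate 2, and their median level there was 5.99% of the endosperm mean, against 2.48% and 2.82% in replicates 1 and 3. The part of the 35 DAF endosperm RNA in these seed coat values was not tested.

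The 200 genes together took a large share of the RNA of the 35 DAF endosperm and little of it later. Their summed level was 90582, 80499 and 78809 CPM in the 3 endosperm libraries of 35 DAF, which is 8.33% ± 0.637 of all counts (SD, n = 3). It was 4511, 2630 and 2534 CPM at 49 DAF and 1786, 1961 and 1899 at MG, and in no later endosperm library did it exceed 3111 CPM. In bulk RNA, fewer cells of a kind and less RNA per cell cannot be told apart. The embryo libraries of 35 DAF held 847, 1822 and 2460 CPM, and the seed coat libraries of that age 2387, 6886 and 2505. From 49 DAF on, no embryo or seed coat library exceeded 217 CPM.

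**Figure D1:**
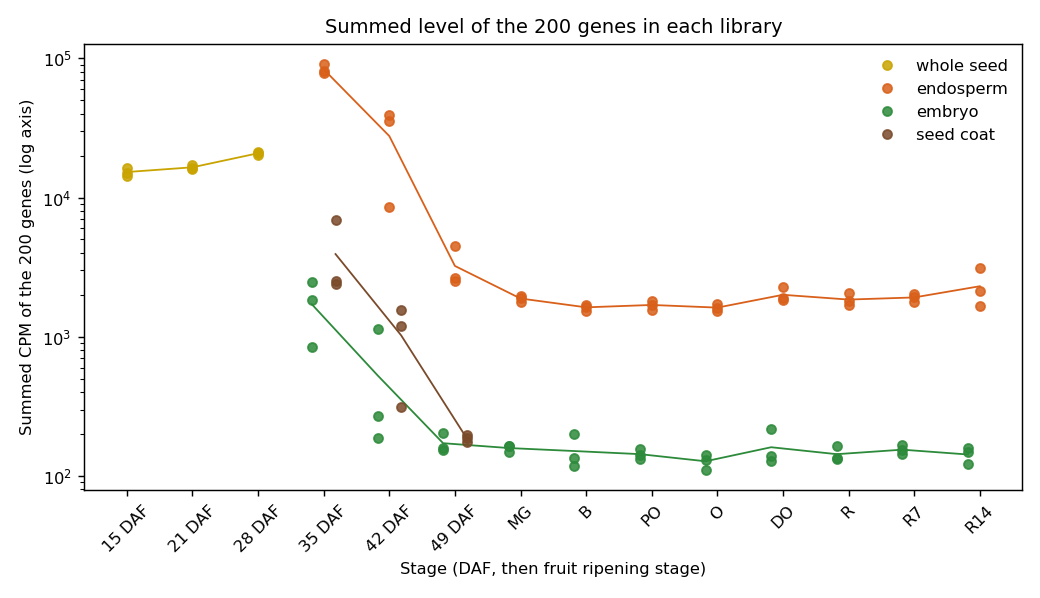
Summed CPM of the 200 genes in each of the 84 libraries (points, log axis) by stage, with lines through the means of 3 libraries. Whole seed libraries lie between 14373 and 21246 CPM, and in the endosperm the sum goes from 78809 CPM or more at 35 DAF to 4511 CPM or less at 49 DAF, with replicate 1 of 42 DAF at 8509 CPM.

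In whole seeds the summed CPM at 15 DAF was 15242 ± 1060 (SD, n = 3), then 16487 ± 564 at 21 DAF and lastly 20801 ± 449 at 28 DAF. The leading 3 genes made up 70.2% to 75.0% of the sum in the 35 DAF endosperm. Without them the whole seed sums were 15238, 16213 and 16504 CPM, and that of the 35 DAF endosperm was 22887 ± 538 CPM. CPM is not scaled to gene length, so that it ranks genes by the reads they took and not by molecules.

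The leading genes differed in when they appeared. Solyc10g054900, for which the sources give no description, had 48548, 37055 and 37084 CPM in the endosperm at 35 DAF and was in place 6 among all genes there. In whole seeds it had 2.70, 2.07 and 2.88 CPM at 15 DAF, 7.22, 3.47 and 10.8 at 21 DAF and 1239, 2328 and 1984 at 28 DAF. The libraries of 28 DAF were all far above those of the earlier stages. The step from 21 to 28 DAF had a log2 ratio of 8.26 (standard error, SE, 1.68, Benjamini-Hochberg adjusted p by edgeR = 0.000267). In the endosperm of 42 DAF it had 4055, 25958 and 27548 CPM, and at 49 DAF 1268, 139 and 144, so that the groups did not overlap but replicate 1 lay low in the one and high in the other.

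Solyc11g068625, in place 8 of all genes in the 35 DAF endosperm, came later still. It had 11780, 11647 and 7707 CPM there, but no more than 2.07 CPM in any whole seed library of 15 or 21 DAF. At 28 DAF it had 19.2, 90.2 and 33.7 CPM, for which the log2 ratio from 21 DAF was 5.73 (SE 1.26, Benjamini-Hochberg adjusted p by edgeR = 0.000719). The mean at 35 DAF was 218 times the highest whole seed mean, the largest such ratio among the 200 genes. By 42 DAF it was at 16.8, 798 and 1705 CPM, and by 49 DAF at 6.89, 8.04 and 7.01.

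Solyc07g064210 appeared a stage earlier. It had 0.142, 0.296 and 0.465 CPM in whole seeds at 15 DAF, 370, 176 and 252 at 21 DAF and 2168, 2688 and 2340 at 28 DAF. Its step from 15 to 21 DAF had the largest log2 fold change among the called genes with at least 10 CPM, 9.87 (SE 1.18, Benjamini-Hochberg adjusted p by edgeR = 3.37e-09), and it rose again to 28 DAF by 3.41 (SE 0.80, adjusted p = 0.00158). The second call was kept in 7 of the 8 alternatives of processing and replicates, the first in 8 of 8. The 35 DAF endosperm libraries held 7620, 9274 and 10513 CPM.

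The other 7 of the 10 leading genes had 35 DAF means from 475 to 1989 CPM. In the endosperm Solyc11g043110 went from 2066, 2088 and 1813 CPM at 35 DAF to 1167, 1041 and 933 at 42 DAF and 994, 876 and 854 at 49 DAF. Solyc08g082630 and Solyc02g087910 had 42 DAF means of 31.3% and 20.7% of their 35 DAF means, and Solyc01g080000 one of 34.2%. For these 4 genes both whole seed steps passed the test as rises, with log2 fold changes between 1.21 and 2.34. From 21 to 28 DAF the call was kept in 8 of 8 alternatives for Solyc08g082630, in 5 for Solyc11g043110 and Solyc01g080000 and in 2 for Solyc02g087910. From 15 to 21 DAF it was kept in 8 for each but Solyc01g080000, with 7.

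Solyc07g061800 was of another kind. Its level was higher in whole seeds of 28 DAF, 1740, 2174 and 2111 CPM, than in the 35 DAF endosperm, 751, 741 and 1608, and at 42 DAF it was down to 0.0931, 0.366 and 0.183. At MG, R7 and R14 no endosperm library had a count of it. Solyc02g021220 went the other way late in ripening, from 266, 237 and 275 CPM at 49 DAF to 711, 604 and 884 at R14.

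The first tested question was how the genes changed from 15 to 21 DAF in whole seeds. Of the 200 genes, all of which passed the filter on low counts (each through its 35 DAF endosperm level), 93 were higher at 21 DAF and 2 were lower, at an adjusted p under 0.05 and a log2 fold change (log2 ratio of the later to the earlier stage) over 1 in size. Over all 24676 genes tested, 4.71% were higher and 4.26% lower. The median log2 fold change was 1.12 over the 200 genes and -0.00 over all genes tested. Without replicate 1 of both stages the count of higher genes was 54, all of them among the 93, and 49 of the 93 were called in every alternative.

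Among called genes with at least 10 CPM, the largest rises beside that of Solyc07g064210 were those of Solyc12g094440 and Solyc07g061800. Solyc12g094440 had 0.898, 2.42 and 1.39 CPM at 15 DAF and 144, 103 and 116 at 21 DAF, for which the log2 ratio was 6.42 (SE 0.41, Benjamini-Hochberg adjusted p by edgeR = 7.03e-20). Solyc07g061800 went from 4.16, 2.84 and 3.58 CPM to 296, 132 and 228, with a log2 ratio of 6.08 (SE 0.75, adjusted p by edgeR = 5.34e-08).

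The 2 genes that fell were already at their highest whole seed level at 15 DAF. Solyc02g062320 had 506, 426 and 493 CPM at 15 DAF and 126, 105 and 114 at 21 DAF (log2 ratio -1.91, SE 0.42, adjusted p by edgeR = 0.000637). Solyc11g061700 had 1426, 1348 and 1241 CPM and then 355, 425 and 352 (log2 ratio -1.69, SE 0.44, adjusted p by edgeR = 0.00436). That call was lost without replicate 1 and with DESeq2.

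From 21 to 28 DAF fewer of the genes changed. Of the 200, 42 were higher at 28 DAF and 2 lower, against 5.15% and 3.89% of all genes tested. The median log2 fold change was 0.44, and -0.02 over all genes tested. Without TMM factors (scaling between libraries that TMM derives from most genes), which moved the median of all genes to -0.26, the counts were 38 and 7. Without replicate 2 the count of higher genes was 20 and without replicate 3 it was 26, and 18 of the 42 were called in every alternative. Both steps were rises for 24 genes, 69 rose in the first step only, 18 rose in the second step only, and 85 were called in neither.

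**Figure D2:**
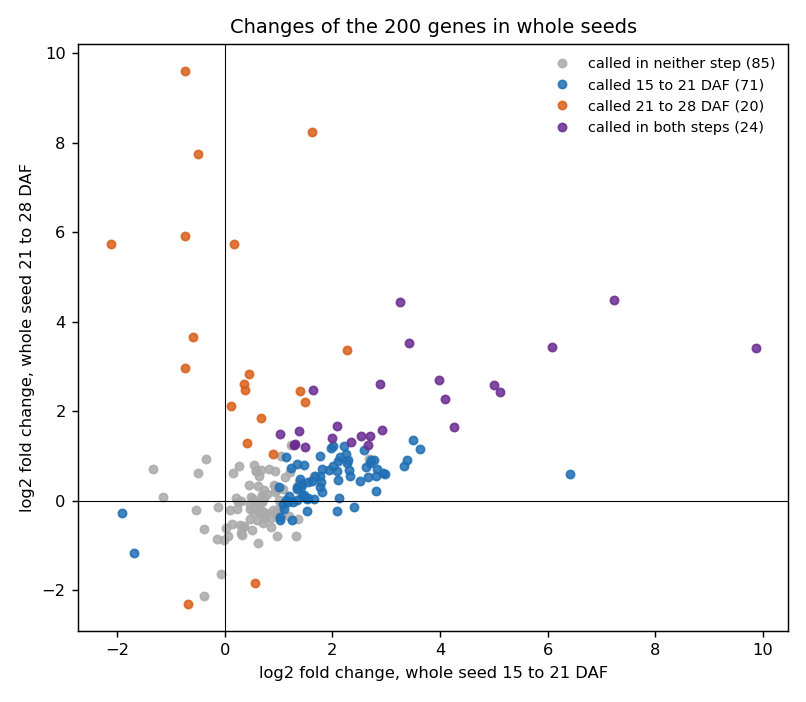
Log2 fold change of each of the 200 genes in whole seeds from 15 to 21 DAF (x axis) and from 21 to 28 DAF (y axis), coloured by the steps in which the gene was called. The 24 genes called in both steps all lie to the upper right of the origin, and the gene with the largest second step, 9.62, lies at -0.74 on the x axis.

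The genes with the largest second step had hardly any reads before it. Solyc09g150100 had 0.286, 0.272 and 0.368 CPM at 21 DAF and 124, 264 and 237 at 28 DAF, for which the log2 ratio was 9.62 (SE 1.04, Benjamini-Hochberg adjusted p by edgeR = 5.26e-09). Solyc09g005770 went from 0.413, 0.195 and 1.21 CPM to 78.3, 139 and 120, with a log2 ratio of 7.75 (SE 1.00, adjusted p by edgeR = 3.67e-08). In the endosperm of 35 DAF these genes had 372, 315 and 607 CPM and 223, 193 and 365, and replicate 3 was the highest library for both.

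The 2 falls in this step were Solyc02g062313 and Solyc02g081760. Solyc02g062313, which lies beside Solyc02g062320 in the order of gene identifiers, had 5928, 5117 and 5577 CPM at 15 DAF, 2699, 3628 and 3059 at 21 DAF and 801, 437 and 380 at 28 DAF. For the step to 28 DAF its log2 ratio was -2.31 (SE 0.34, adjusted p by edgeR = 8.22e-07), and its libraries in the 35 DAF endosperm held 105, 155 and 195 CPM. Solyc02g081760 fell from 237, 236 and 230 CPM to 71.0, 47.6 and 48.9 (log2 ratio -1.84, SE 0.35, adjusted p by edgeR = 9.61e-05).

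With whole seeds included, 35 DAF was not the highest stage of every gene. For 64 of the 200 genes a whole seed mean lay above the 35 DAF endosperm mean, with the highest whole seed stage at 15 DAF for 12, at 21 DAF for 38 and at 28 DAF for 14. A whole seed holds all 3 tissues, so that the levels are set side by side and were not tested. Solyc10g085540 stood out most: it had 388, 340 and 345 CPM at 15 DAF, 966, 931 and 918 at 21 DAF and 800, 564 and 684 at 28 DAF, but 9.08, 23.8 and 10.4 in the endosperm of 35 DAF and no count in any endosperm library of 42 or 49 DAF. Solyc03g034330 was like it, with whole seed libraries between 92.4 and 185 CPM, 12.4, 18.0 and 31.4 CPM in the 35 DAF endosperm and 0 at 42 and 49 DAF. Set against a floor of 3 counts per library, the 42 DAF level was at least 103-fold lower than at 35 DAF for Solyc10g085540 and at least 148-fold lower for Solyc03g034330.

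After 35 DAF the genes parted. The 42 DAF endosperm mean was under 1% of the 35 DAF mean for 23 genes, under 10% for 92 and at or over 50% for 32, with a median of 12.3%. At 49 DAF the median was 1.95%, 147 genes were under 10% and 8 were at or over 50%. All 35 DAF libraries lay above all 42 DAF libraries for 190 genes, an order that the choice of the genes favours.

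The 23 genes that were under 1% by 42 DAF, a class drawn after the values were seen, had more in common. For 20 of them a whole seed mean exceeded the 35 DAF endosperm mean, which held for 2 of the 32 genes still at or over 50% at 42 DAF. Replicate 3 was the highest 35 DAF endosperm library for 21 of the 23, and for 121 of all 200. The embryo marker SlABI4-2 was highest in that library too, at 4.56 CPM. By the choice, the embryo means of these genes were at least 10 times lower than their 35 DAF endosperm means. A part of the embryo in this was not tested. Their median fold over the other dissected tissues was 11.9, close to the limit of 10, against 25.0 over all 200 genes.

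**Figure D3:**
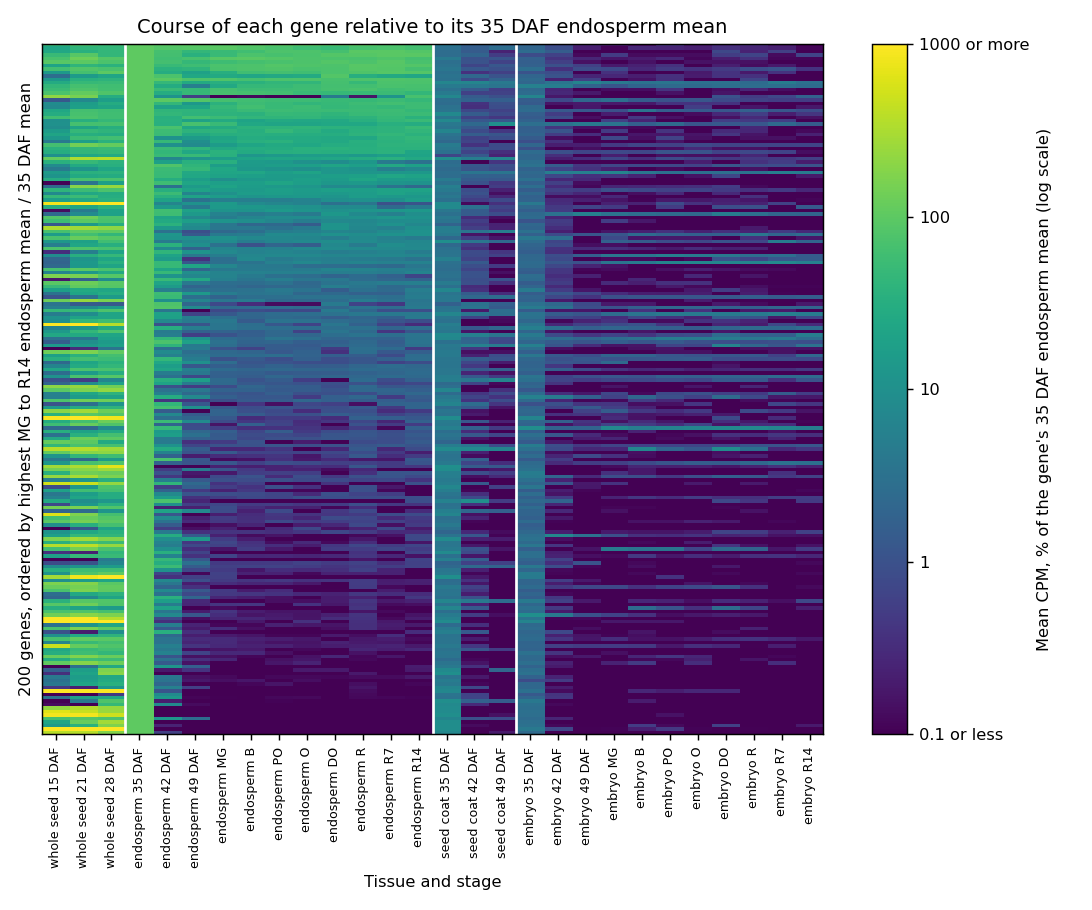
Mean level of each of the 200 genes (rows) in the 28 groups (columns) as a percentage of the gene's own 35 DAF endosperm mean, on a log colour scale, ordered by the highest mean from MG to R14. The upper rows are the genes with the highest level between MG and R14 relative to 35 DAF, 77 of the 200 genes are under 1% at 49 DAF, and 64 have a whole seed mean above 100%.

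Between 42 and 49 DAF most of the genes went lower in the endosperm. Both stage means entered the choice, which placed them under that of 35 DAF, so that the values are a description and no test of this step is drawn on. In the fit of all libraries 118 of the 200 genes met the limits for a fall and 3 for a rise, against 10.5% and 9.25% of all genes, and the median log2 ratio was -2.11. In the 6 libraries of these stages alone 143 of the 200 genes passed the filter on low counts, and with the replicate number as a block none of them met the limits, nor did any other gene. Without replicate 1 of 42 DAF, an alternative chosen after seeing the data, the counts were 124 and 6. Falls in these libraries were not limited to the 200 genes. In the fit of all libraries 133 of the 200 leading embryo-preferential genes of 35 DAF fell and 0 rose, with a median of -3.96. Their summed level in the endosperm was low, 318, 380 and 2606 CPM at 42 DAF and 123, 106 and 61.1 CPM at 49 DAF. The part of embryo RNA in these values was not tested. Of the 200 leading seed coat-preferential genes 14 fell and 24 rose. Of the 166 endosperm genes that met the conditions but ranked after the 200, 38 fell and 2 rose.

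The lowest log2 ratios among the genes without overlap and with at least 10 CPM were -8.10 for Solyc07g049300, -6.85 for Solyc11g068625 and -6.81 for Solyc04g064600. Solyc07g049300 had 4.61, 31.6 and 43.7 CPM at 42 DAF and 0.279, 0 and 0 at 49 DAF. Solyc04g064600 had 0.465, 17.8 and 56.4 CPM and then 0.372, 0.187 and 0.0929. In each of these 3 genes replicate 1 of 42 DAF was the lowest library of its stage.

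A few genes were higher at 49 than at 42 DAF, though below their 35 DAF level. Solyc12g094440 had 48.4, 63.2 and 84.4 CPM at 35 DAF, 3.07, 1.33 and 1.51 at 42 DAF and 7.03, 12.1 and 10.8 at 49 DAF. Solyc08g067640, named after its values were seen, went from 0.419, 0.0458 and 0.0457 CPM to 1.72, 1.64 and 1.44. Solyc01g098280, described as a DnaJ (heat shock protein co-chaperone) domain protein, had 5.86, 3.62 and 3.34 CPM and then 7.91, 10.7 and 7.85. The libraries of 42 and 49 DAF did not overlap in any of the 3 genes.

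**Figure D4:**
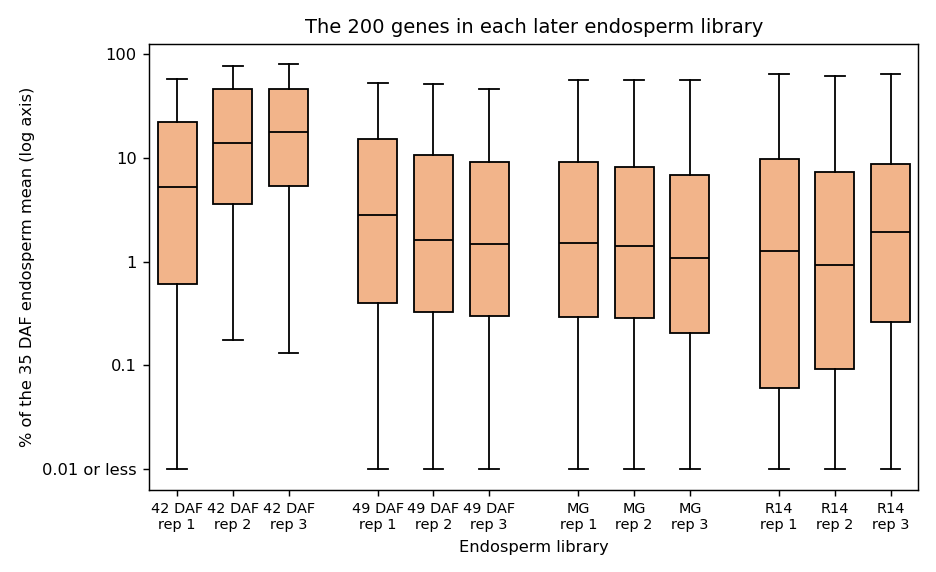
Level of the 200 genes in each endosperm library of 42 DAF, 49 DAF, MG and R14 as a percentage of the 35 DAF endosperm mean (log axis). Boxes span the quartiles with the median as a line, whiskers the 5th to 95th percentiles. The median is 5.20% in replicate 1 of 42 DAF and 13.8% and 17.6% in replicates 2 and 3.

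In 24 genes the mean of one or more stages from MG to R14 reached at least 50% of the 35 DAF mean, whether or not it had been lower at 49 DAF. For Solyc01g095450 this rested on 1 library of R14. Solyc02g087365 stayed near its 35 DAF level to 49 DAF and was lower at R14, with 86.9, 81.4 and 106 CPM at 35 DAF, 102, 97.2 and 74.6 at 42 DAF, 103, 85.4 and 80.2 at 49 DAF and 57.8, 67.8 and 58.2 at R14. The 35 DAF libraries overlapped those of 42 and 49 DAF, so that 35 DAF was its highest endosperm stage by a margin within the spread of the libraries. The same was true of Solyc10g080410, with 263, 234 and 251 CPM at 35 DAF and 268, 251 and 208 at 42 DAF, and of Solyc06g033810 and Solyc03g096100, whose 42 DAF means were 98.5% and 84.6% of those at 35 DAF. Solyc00g500096 dipped to 45.0% at 49 DAF and was back at 94.6% at R.

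The GO groups described here were picked after their values were seen. Each holds only the genes that the study lists under a term within its module ME6, not all tomato genes with that term. The study built ME6 on these same libraries, so that the share of a group among the 200 is not independent of the choice. The first was shared by the terms somatic embryogenesis and blue light signaling pathway. The study describes 10 LEC1-like orthologues under somatic embryogenesis and also under ABA activated signalling, without identifiers in its text. The ABA term was not examined here, so that it is not known which of these genes they are. Within ME6 somatic embryogenesis and blue light signaling pathway share 10 genes, and 9 of them are among the 200. In whole seeds 8 of the 9 rose from 15 to 21 DAF, none fell, and 2 rose further to 28 DAF. Of these calls 5 of the 8 and 0 of the 2 were kept in every alternative. Among the 200 genes 46.5% rose in the first of these steps and 21.0% in the second, and among all genes tested 4.71% and 5.15%. All 9 had their highest whole seed mean at 28 DAF, and their 35 DAF endosperm means ranged from 32.4 to 475 CPM. Their 42 DAF endosperm means were 1.42% to 9.39% of those at 35 DAF, and their 49 DAF means 0.0479% to 4.02%.

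Solyc07g065563, the one with the highest reading, had 16.4, 12.6 and 14.8 CPM in whole seeds at 15 DAF, 58.1, 48.6 and 54.1 at 21 DAF and 90.5, 108 and 119 at 28 DAF. In the endosperm it had 428, 445 and 553 CPM at 35 DAF, 2.39, 20.9 and 50.1 at 42 DAF and 1.86, 1.73 and 0 at 49 DAF. Each whole seed stage lay above the one before, with no overlap between their libraries. The step from 15 to 21 DAF had a log2 ratio of 2.01 (SE 0.61, adjusted p by edgeR = 0.0142), a call kept in 4 of the 8 alternatives. That from 21 to 28 DAF, 1.22 (SE 0.59, adjusted p by edgeR = 0.147), did not pass the test.

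Solyc05g005380 had the largest first step of the group. It went from 1.32, 2.01 and 1.30 CPM at 15 DAF to 33.9, 18.8 and 27.2 at 21 DAF and 72.0, 73.3 and 67.9 at 28 DAF, with log2 fold changes of 4.25 (SE 0.59, adjusted p by edgeR = 2.09e-07) and 1.65 (SE 0.49, adjusted p by edgeR = 0.0144), the first kept in 8 of 8 alternatives and the second in 5. The one gene of the 9 whose first step did not pass the test was Solyc07g065567 (log2 ratio 2.68, SE 1.25, adjusted p by edgeR = 0.143). Solyc05g015550 had overlapping libraries in the later endosperm, with 3.12, 4.99 and 7.78 CPM at 42 DAF and 3.82, 4.39 and 5.34 at 49 DAF.

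The tenth gene listed under both terms, Solyc04g015060, had a course of its own. Its means were 7.84, 47.3 and 26.0 CPM in whole seeds of 15, 21 and 28 DAF, but 0.153 CPM in the endosperm and 2.61 CPM in the embryo at 35 DAF. Several of the 9 genes are neighbours, and how the estimated counts divided reads between near-identical copies is uncertain.

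**Figure D5:**
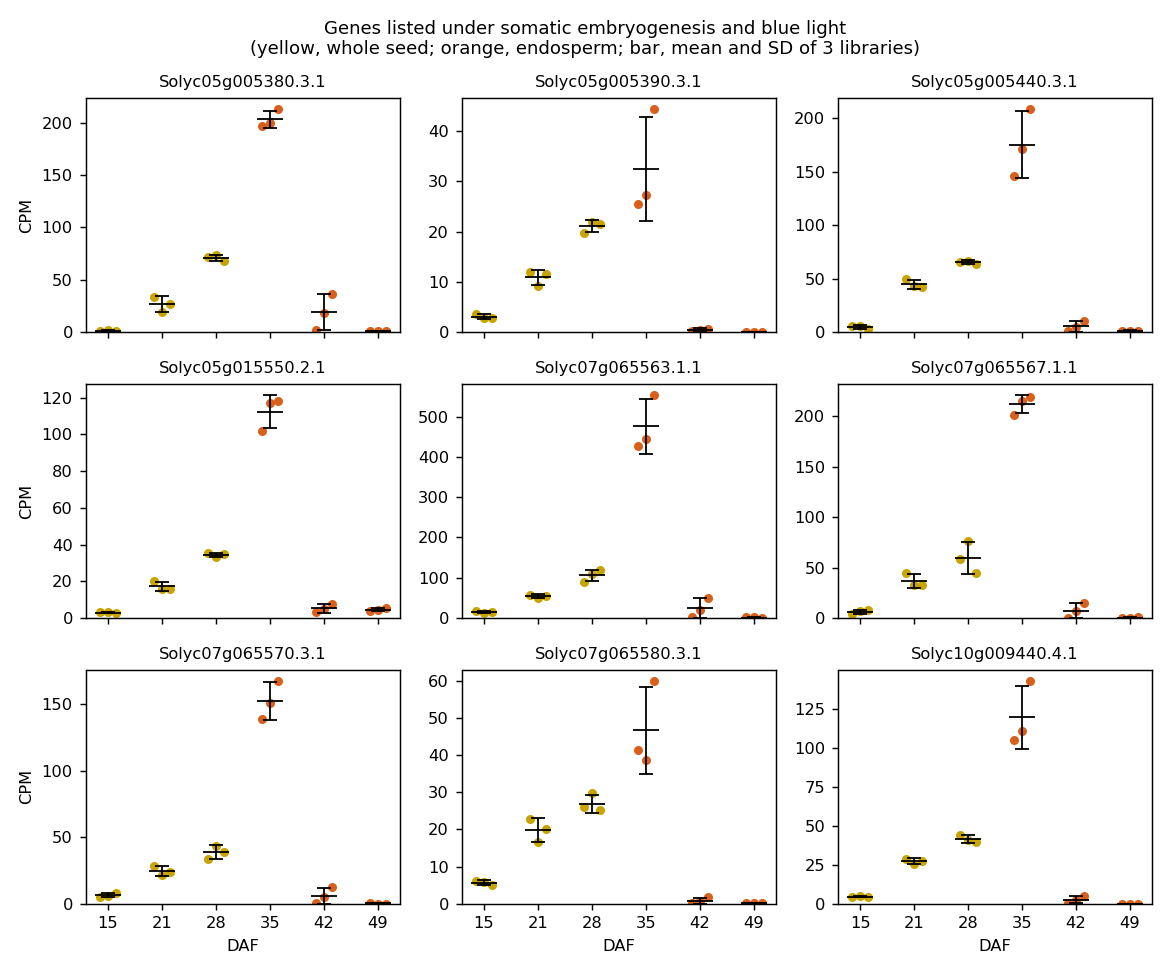
CPM of the 9 genes listed under both somatic embryogenesis and blue light signaling pathway, in whole seeds (15 to 28 DAF) and endosperm (35 to 49 DAF). Points are libraries, bars the mean and SD of 3, and the vertical scale differs between panels. Every gene is highest at 35 DAF, with means of 32.4 to 475 CPM, and at or below 24.5 CPM on average at 42 DAF.

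A second group, listed under a term on the response to jasmonic acid in jasmonic acid and ethylene-dependent systemic resistance, had 11 of its 12 genes among the 200. These genes were already read at 15 DAF. Their whole seed means ranged from 3.38 to 63.9 CPM at 15 DAF, and all 11 had their highest whole seed mean at 21 DAF. Of the 11, 1 passed the test as a rise from 15 to 21 DAF, a call not kept in every alternative, and none passed it from 21 to 28 DAF. The shares of the 200 that rose were 46.5% and 21.0%, and those of all genes tested 4.71% and 5.15%. Their 35 DAF means were up to 71.5 CPM, and the 42 DAF means 0.989% to 5.99% of these. Solyc11g050930 had 64.4, 61.5 and 65.8 CPM at 15 DAF, 107, 84.6 and 93.2 at 21 DAF, 67.2, 51.6 and 52.2 at 28 DAF and 70.3, 75.2 and 69.0 in the 35 DAF endosperm, and then 0.355, 4.08 and 5.74 at 42 DAF. The same 11 genes are listed under brassinosteroid metabolic process, with Solyc02g085880 as the twelfth. That gene had 597, 450 and 367 CPM at 35 DAF and 92.0, 467 and 446 at 42 DAF, so that 2 of the 3 libraries of 42 DAF were still within the range of 35 DAF, and it went down to 15.3, 1.85 and 0.325 at 49 DAF.

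The term protein adenylylation held 8 genes within ME6, of which 3 are among the 200. None of the 3 passed the test in whole seeds, and their 42 DAF endosperm means were 4.52% to 22.1% of those at 35 DAF. Solyc00g500218 had 37.8, 32.1 and 32.2 CPM at 15 DAF, 82.5, 73.7 and 82.6 at 21 DAF and 42.9, 49.9 and 51.8 in the 35 DAF endosperm. Rejection of self pollen held 8 genes, 2 of them among the 200. Both rose from 15 to 21 DAF (46.5% of the 200 and 4.71% of all genes tested did), though neither call was kept in every alternative. Solyc09g092370 had 22.8, 18.7 and 16.2 CPM at 15 DAF, 116, 79.0 and 107 at 21 DAF, 215, 236 and 247 at 28 DAF and 60.2, 64.6 and 130 in the 35 DAF endosperm. At 42 DAF it was at 0, 0 and 0.137 CPM.

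Of the genes with a description, a few are regulators. Solyc01g009510 is described as abscisic acid responsive elements-binding factor 2, a bZIP factor that in Arabidopsis acts in abscisic acid signalling. It had 10.6, 9.23 and 8.83 CPM at 15 DAF, 76.1, 61.0 and 69.4 at 21 DAF, 93.0, 90.9 and 82.5 at 28 DAF and 118, 135 and 165 in the 35 DAF endosperm. Its first step had a log2 ratio of 2.98 (SE 0.46, adjusted p by edgeR = 7.81e-06), and it was at 0.931, 4.53 and 8.05 CPM at 42 DAF.

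Solyc01g013995, a B3 domain factor described as VRN1-like, and Solyc01g005180, described as LITTLE ZIPPER 3, whose relatives in Arabidopsis bind HD-ZIP III factors and keep them from DNA, both rose from 15 to 21 DAF, with log2 fold changes of 2.26 (SE 0.50, adjusted p by edgeR = 0.000941) and 2.14 (SE 0.48, adjusted p by edgeR = 0.000744). Their 35 DAF libraries held 27.9, 26.0 and 27.1 CPM and 21.7, 21.8 and 34.0. Solyc02g077810, described as ethylene-responsive transcription factor 4, and Solyc02g032130, a ninja-family AFP1-like protein, whose Arabidopsis relatives bind the abscisic acid factor ABI5, passed the test in neither whole seed step. Their 35 DAF means were 9.26 ± 0.622 and 8.60 ± 1.20 CPM (SD, n = 3).

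Solyc02g069330, described as an inhibitor of fructosidase (invertase, the enzyme that splits sucrose), had no count in any whole seed library of 15 DAF. It had 2.09, 0.695 and 1.06 CPM at 21 DAF and 19.4, 28.9 and 25.2 at 28 DAF, the latter at least 138-fold higher than at 15 DAF against the floor of 3 counts per library. In the 35 DAF endosperm it had 24.0, 23.1 and 45.1 CPM, and it was at or below 0.137 CPM at 42 DAF. Solyc02g078370, described as an anther-specific TA-29-like protein, passed the test in neither whole seed step and had 16.3, 16.6 and 14.9 CPM at 35 DAF. Solyc02g060585, described as a DSK2b-like ubiquitin domain protein, had 7.44, 6.38 and 10.8 CPM at 35 DAF and was at 61.7% of this mean at R7.

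Of the 21 lists of keywords searched in the descriptions, 7 held a member and none held more than 2. The homeodomain, MYB, bHLH and other DNA-binding factors held Solyc01g005180 and Solyc02g077810, and hormone synthesis and response held Solyc01g009510 and Solyc02g077810. The B3 factors, the NINJA/AFP family, the small cysteine-rich and secreted peptides, the protease and invertase inhibitors, and F-box and ubiquitin held 1 each of the genes above. With 14 of 200 genes described, the other lists, such as storage proteins, MADS-box factors and lipid synthesis, are not assessed by their lack of a match.

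Several members are neighbours. Tomato gene identifiers number the genes along each chromosome, and 59 of the 200 genes lay within 5 places of another of the 200, in 23 runs of 2 to 6 genes. For the 1184 endosperm-preferential genes of any stage the share was 50.4% against 29.5% here, but the share grows with the number of genes in a set and the values are not comparable. The longest run, on chromosome 5, reached from Solyc05g005350 to Solyc05g005440. All 6 of its genes rose from 15 to 21 DAF (46.5% of the 200 and 4.71% of all genes tested did), 5 of them in every alternative. After 35 DAF they parted. The 3 with the GO terms above, Solyc05g005380, Solyc05g005390 and Solyc05g005440, had at most 9.39% of their 35 DAF level at 42 DAF. Solyc05g005350, next to them, had 284, 260 and 242 CPM at 35 DAF and 108, 190 and 169 at 42 DAF. This was 59.4% of the 35 DAF mean, and it had 27.8, 30.5 and 47.7 CPM at R14.

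The run of 4 genes on chromosome 7, Solyc07g065563 to Solyc07g065580, was uniform, with 42 DAF means of 1.82% to 5.15% of those at 35 DAF. A run of 5 genes on chromosome 6, from Solyc06g052110 to Solyc06g052145, none with a description, was read to the end of ripening. Its genes had 20.5% to 56.9% of their 35 DAF level at 49 DAF and 34.8% to 91.1% at their highest stage from MG to R14. In whole seeds 4 of the 5 rose from 15 to 21 DAF (46.5% of the 200 and 4.71% of all genes tested did), and 0 of these 4 calls were kept in every alternative. Solyc06g052143 had 37.8, 39.1 and 52.7 CPM at 35 DAF, 23.3, 25.5 and 25.0 at 49 DAF and 38.9, 39.8 and 31.0 at R14.

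Other sets chosen by the same rule are given for comparison, with counts and no test between sets. Of the 166 genes that met the conditions but ranked after the 200, 39 rose and 1 fell from 15 to 21 DAF. From 21 to 28 DAF 18 of the 166 rose and 9 fell. Of the 200 leading embryo-preferential genes that were highest at 35 DAF, 29 rose and 21 fell from 15 to 21 DAF. In the step from 21 to 28 DAF 43 of these rose and 6 fell. Of the 200 leading seed coat-preferential genes that were highest at 35 DAF, 42 rose and 13 fell and then 73 rose and 9 fell. The median log2 fold change from 15 to 21 DAF was 1.12 for the 200 endosperm genes, 0.06 for the embryo genes and 0.26 for the seed coat genes. From 21 to 28 DAF the order was the reverse for the endosperm genes, with medians of 0.44, 1.05 and 0.71 for the same sets.

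At the edge of the choice the values were continuous. The last genes kept, Solyc02g081870 and Solyc03g034336, had 8.12 and 8.09 CPM at 35 DAF, and the first left out, Solyc04g051885 and Solyc02g061640, had 7.89 and 7.86 CPM. The smallest folds over the other tissues among the 200 were 10.0 for both Solyc01g098280 and Solyc09g011100. Just outside were Solyc09g030370, with a fold of 9.96, and Solyc10g009410, with a fold of 9.84 and a 35 DAF mean of 824 CPM, which would have placed it among the leading 10.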

How the data were processed

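Expression was measured by RNA sequencing in 84 libraries of tomato seed tissues. The deposited table holds estimated counts per gene, which the authors obtained with Salmon against the ITAG 4.0 gene models, and these counts were rounded to whole numbers for testing. CPM was computed from library totals. Libraries were grouped by the tissue and stage in their titles. Stages were compared with edgeR 4.0.16 (R 4.3.3; filterByExpr, TMM factors, quasi-likelihood test, all libraries in 1 fit with 1 coefficient per group), with Benjamini-Hochberg adjustment over all 24676 genes tested. Genes were called at an adjusted p under 0.05 and a log2 fold change over 1 in size. The code was tested on simulated data. The endosperm step from 42 to 49 DAF was fitted in the same way and is given as a description, since its stages entered the choice.

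The members, lists and tests were chosen with earlier results of these data known. Named genes were the 10 with the highest 35 DAF mean, up to 3 per keyword list, the 3 largest called rises and falls per tested step without overlap and with at least 10 CPM, the 3 highest and lowest ratios of 42 to 35 DAF, the 3 with the highest later level, and those at the edges of the choice. Genes of GO groups and of runs of neighbours were added after their values were seen. Descriptions and GO terms come from the study's supplementary tables, which were shortened here. Alternatives were DESeq2 1.42.0, library totals without TMM, no filter, only the 6 libraries compared, a replicate block and each replicate left out. In the main fit the p-values rest on 1 estimate of the spread per gene, shared by all groups of 3 pooled samples. They do not measure the spread of the 6 libraries compared alone. The floors of 3 counts cover counting error only. Promoter and protein sequences were not analysed here.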

Additional observations from a re-analysis of the deposited data

How the results depend on the processing

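Over the 3 steps fitted, 57 alternative values of the counts, sums and sizes of the choice stayed within 1.5 times, or within 1 SD, of the reported ones, and 15 did not. With 3 libraries, a mean sum with 1 of them left out always lies within 1 SD. Those sums are among the 57 and say nothing of stability. For the 13 largest rises and falls of named genes 102 alternatives gave the same call and 5 lost it. Over all 200 genes, 49 of the 93 rises from 15 to 21 DAF and 18 of the 42 from 21 to 28 DAF were called in every alternative. Among the rest, leaving out replicate numbers gave 54 to 65 genes higher and 1 to 2 lower from 15 to 21 DAF, 20 to 34 higher and 2 lower from 21 to 28 DAF, and 86 to 127 lower and 2 to 4 higher from 42 to 49 DAF. Fewer samples are fitted there. Without replicate 1 of 42 DAF alone, an alternative chosen after seeing the data, 6 were higher. The count of lower genes from 15 to 21 DAF was 4 with only the 6 libraries compared and 1 with DESeq2, and from 21 to 28 DAF it was 7 with library totals, which moved the median of all genes to -0.26, and 5 with only the 6 libraries. At a fold of 20 between tissues, 222 genes met the conditions and 133 of the 200 stayed, and with means without replicate 1, 2 or 3 the figures were 293 to 402 genes and 166 to 184 stayed. With TMM-scaled library sizes 169 stayed. The summed level in the endosperm with 1 replicate left out ranged at 35 DAF from 79654 to 85541 CPM, and at 42 DAF from 21994 to 37197 CPM.

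Whether replicate numbers pair the samples is not settled here, since deviations around a mean of 3 libraries are a weak check. The correlations of same-numbered deviations from the group means were -0.00 to 0.20 for 15 and 21 DAF, -0.11 to 0.06 for 21 and 28 DAF, and -0.09 to 0.01 for 42 and 49 DAF. With the replicate block, 105 genes were higher and 4 lower from 15 to 21 DAF, 53 and 5 from 21 to 28 DAF, and 0 and 0 from 42 to 49 DAF, where the fit tested 143 of the 200 genes. Replicates 1 and 3 of 15 and 21 DAF correlated best with their own numbers (0.20 and 0.17), but not every sample did so. Counts of 3 or fewer limit what can be said of genes at or below 0.177 CPM in a library.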

Other observations

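Some genes were read again in single late endosperm libraries. Solyc01g095450 had 107, 105 and 102 CPM in the endosperm at 35 DAF and 0.838, 0.561 and 0.418 CPM at 49 DAF. At R14 it had 211, 0.193 and 0.375 CPM, at R7 0.237, 0.240 and 36.0 CPM and at DO 0, 13.1 and 0.0484 CPM, so that its late level came from 1 library at each of these stages. The leading gene Solyc10g054900 had 3.01, 2.27 and 784 CPM at R14, and Solyc07g064210 had 0.334, 0.338 and 54.0 CPM in the same libraries, with replicate 3 the high one for both.

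Solyc04g072043 returned in all 3 libraries of a stage. It had 127, 126 and 134 CPM at 35 DAF, 6.65, 6.68 and 6.73 CPM at 49 DAF, 97.5, 97.5 and 84.7 CPM at R7 and 89.0, 90.2 and 83.6 CPM at R14.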
